A study of Mus musculus with 27 samples.

Results

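The immediate early genes studied here are Fos, Fosb, Jun, Junb, Egr1, Egr2, Atf3, Ier2, Ier3 and Dusp1, taken by name from the gene annotation of a mouse bead array. All 10 carried a probe, with 11 probes in all because Junb had 2, out of 45281 probes on the array. All 10 passed the detection filter and are among the 12814 named genes tested. RNA was measured on 27 arrays of C57BL/6 mouse cells in 8 groups. ESdM 22 and ESdM 20 are lines of microglia-like cells grown from embryonic stem cells, sampled after more than 51 days of culture (3 arrays each). The cells labelled microglia and astrocyte came from brain at day 3 and the neurons from brain at embryonic day 15 to 16 (3 arrays each). BM-DC (3 arrays) and MF (4 arrays) came from bone marrow with an age of day 7, and CD8 Tnaive cells (5 arrays) from the spleen of mice aged 6 to 8 weeks. The labels do not spell out BM-DC and MF, which are read here as dendritic cells and macrophages. No stimulus is named for any group. The comparisons set the ES-cell-derived lines beside cells labelled microglia, and these beside other brain, marrow and spleen cells.

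Immediate early genes are transcribed soon after a cell meets a growth factor, a cytokine, stress or mechanical handling, with no need for newly made protein. Fos and Jun family proteins pair to form the transcription factor AP-1, Egr1 and Egr2 are zinc finger transcription factors, and Atf3 is a stress-induced factor that can repress transcription. Dusp1 encodes a phosphatase that switches off MAP kinases, the kinases that induce many of these genes. In brain and blood cells the family is known to respond to tissue dissociation and cell isolation as well as to receptor signals.

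Short DNA elements in the promoters of these genes are well known, namely the cAMP response element bound by CREB and ATF proteins and the CArG box bound by serum response factor. RefSeq promoters (GRCm38.p6) were at hand for 8 of the 10 members. The first 250 bases upstream of each start were searched on both strands. TGACG, the core of the cAMP response element, occurred in at least 1 listed promoter of 6 of the 8 (Fos, Fosb, Junb, Dusp1, Atf3 and Egr2), and so in 19.8% of 26987 genes. By promoter, it occurred in 8 of the members' 12 windows, 3 of them overlapping windows of Egr2, and in 17.8% of 32807 promoters. The motif was chosen after the sequences were read. The full palindrome TGACGTCA, which holds TGACG on both strands, occurred in Dusp1 alone (1.77% of genes). A CArG box occurred in Egr2 alone (1.63% of genes). The AP-1 site TGACTCA (5.17% of genes) and the EGR site GCGTGGGCG (0.623%) occurred in none of the 8. The 160 bases upstream of the start are shown for the 5 members with a single listed start and TGACG, with TGACG or its reverse complement CGTCA in capitals. Ier3, which like Jun held no TGACG, is shown for comparison, and for Egr2 30 bases around the CArG box (capitals). A relation of TGACG to the levels was not tested.
Fos, chr12:85473730-85473889, plus strand: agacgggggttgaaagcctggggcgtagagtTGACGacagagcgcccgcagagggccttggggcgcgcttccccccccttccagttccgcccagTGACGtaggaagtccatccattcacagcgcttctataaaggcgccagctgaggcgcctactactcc
Fosb, chr7:19310046-19310205, minus strand: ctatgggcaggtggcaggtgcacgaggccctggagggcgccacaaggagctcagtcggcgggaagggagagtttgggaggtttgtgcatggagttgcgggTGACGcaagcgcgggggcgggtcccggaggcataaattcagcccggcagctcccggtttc
Junb, chr8:84978749-84978908, minus strand: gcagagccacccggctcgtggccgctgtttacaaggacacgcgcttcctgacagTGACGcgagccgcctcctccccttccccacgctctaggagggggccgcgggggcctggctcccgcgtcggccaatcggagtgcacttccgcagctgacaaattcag
Dusp1, chr17:26508473-26508632, minus strand: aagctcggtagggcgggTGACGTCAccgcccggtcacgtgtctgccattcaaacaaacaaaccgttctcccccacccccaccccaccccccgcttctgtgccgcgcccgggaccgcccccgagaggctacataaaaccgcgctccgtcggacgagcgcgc
Atf3, chr1:191183334-191183493, minus strand: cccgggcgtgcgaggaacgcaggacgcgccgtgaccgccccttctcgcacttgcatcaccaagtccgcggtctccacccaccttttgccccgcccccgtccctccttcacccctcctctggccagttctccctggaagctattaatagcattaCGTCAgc
Ier3, chr17:35821553-35821712, plus strand: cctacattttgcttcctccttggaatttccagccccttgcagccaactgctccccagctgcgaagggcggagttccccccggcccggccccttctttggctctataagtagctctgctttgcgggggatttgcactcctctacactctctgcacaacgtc
Egr2, chr10:67537787-67537816, plus strand: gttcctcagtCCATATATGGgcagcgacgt
In Fos the match nearest the start covered bases -66 to -62, in Fosb bases -60 to -56, in Junb bases -106 to -102 and in Atf3 bases -7 to -3. Dusp1 had the palindrome at -143 to -136. Egr2 has 5 listed starts, some with overlapping windows, and 4 of the 5 windows held a CArG box. The one shown lay at -72 to -63 of its start. A match of letters is a description, and a missing match says only that these letters are not in this window.

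Levels are log2 normalized intensities, on which undetected probes lie near 4.3. A probe was detected on an array where its detection p was below 0.05. Between 14247 and 17533 probes were detected per array. The median raw intensity was 80.1 to 113 outside BM-DC and 27.6 to 28.6 in BM-DC, which were on a chip of their own. ESdM 22, ESdM 20 and microglia shared 2 chips, astrocytes and neurons shared 1, and the other groups shared none, so in any comparison with MF chip and cell type are confounded and cannot be told apart. Ages also differ between most groups. The cells labelled microglia had 7 of 9 microglia markers detected on no array, among them Fcrls, Cx3cr1, Tmem119 and P2ry12, and 1 detected on all. Of 8 macrophage markers 6 were detected on every array of these cells, with Adgre1 at 10.66 and Csf1r at 9.04. The other 2, Cd163 and C1qa, were detected on none. In astrocytes Adgre1 was at 10.18 and Csf1r at 8.86. ESdM 22 and ESdM 20 had 4 and 5 of the 9 microglia markers detected on no array, and 1 and 2 detected on all. Marker sums here and below are of unlogged normalized intensities, to which undetected probes add their background. The 9 microglia markers summed to 215 to 218 in ESdM 22, 209 to 222 in ESdM 20 and 210 to 218 in microglia, against 192 to 205 in neurons. The astrocyte arrays carried 7 of the 9 microglia markers on every array beside Gfap at 11.52. CD8 Tnaive arrays had Cd3e at 12.60 and Cd3d at 12.58, but Cd8a was detected on none of the 5, and Cd8b1, at 8.99, was no higher than in MF at 9.51. They also carried the haemoglobin gene Hba-a1 at 11.28, the antigen presentation gene H2-Aa at 8.27 and the B cell gene Cd79b at 6.58. Ms4a1, the only other B cell marker with a probe, was detected on none of these arrays. BM-DC had 5 of 9 dendritic markers detected on every array, and Flt3, Ccl22 and Zbtb46 on none. These markers summed to 8020 to 11100 in BM-DC and to 2260 to 2570 in MF. Of the 8 macrophage markers 6 were detected on every BM-DC array and Cd163 on none. They summed to 21800 to 23000 in BM-DC and to 29200 to 32000 in MF. In bulk RNA, fewer cells of a type and less RNA per cell cannot be told apart.

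**Figure D1:**
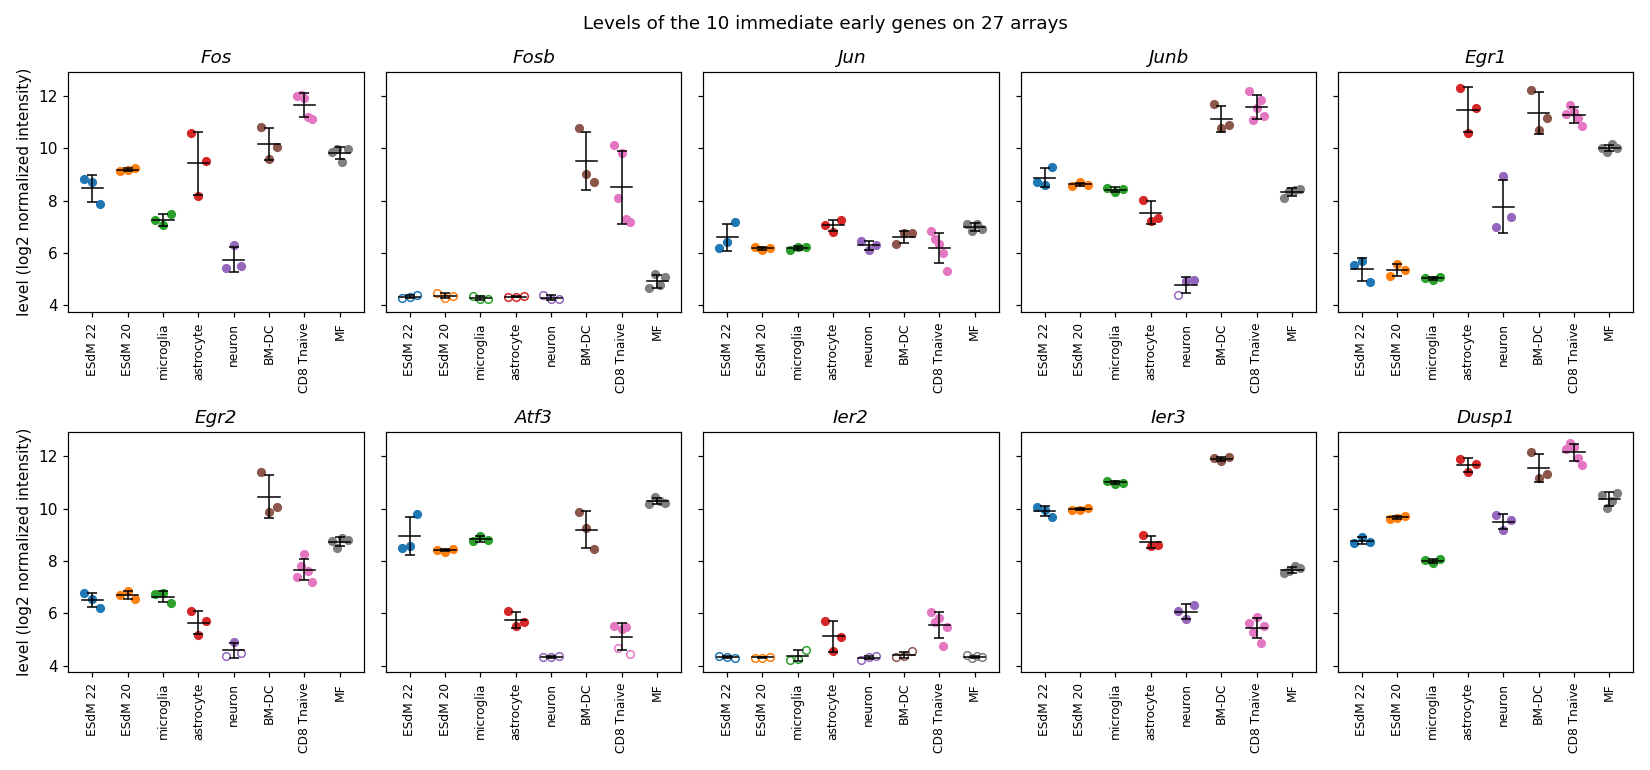
Levels of the 10 immediate early genes (log2 normalized intensity, vertical axis) on each of the 27 arrays, by group. Filled points are detected, open points are not detected, and bars are the mean and SD. Fos ran highest in CD8 Tnaive cells at 11.66 and Ier3 highest in BM-DC at 11.90, while Jun spanned only 0.87 between groups.

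Fos (chr12:85473890-85477274), the AP-1 subunit whose RNA is among the shortest lived in the cell, was detected on all 27 arrays. ESdM 22 had 8.84, 8.71 and 7.88, and ESdM 20 had 9.13, 9.17 and 9.24. Microglia had 7.26, 7.06 and 7.51, and only neurons were lower. Astrocytes had 10.59, 8.18 and 9.52, the widest spread of any group for this gene. Neurons had 5.44, 6.30 and 5.51. BM-DC had 10.82, 9.60 and 10.07, CD8 Tnaive cells 12.02, 12.04, 11.93, 11.21 and 11.11, and MF 9.85, 9.98, 9.48 and 9.98. CD8 Tnaive cells stood above all others with no overlap. The arrays of BM-DC and MF, of MF and astrocytes, and of astrocytes and ESdM 20 overlapped, so the order among these neighbours is not settled.

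Fosb (chr7:19302696-19310118), a Fos paralogue that also pairs with Jun proteins, was detected on all arrays of only 3 groups. It was detected on no array of ESdM 22, ESdM 20, microglia, astrocytes or neurons, where values lay between 4.24 and 4.46. BM-DC had 10.77, 9.04 and 8.73, and CD8 Tnaive cells had 10.13, 8.10, 9.82, 7.30 and 7.20. MF lay just above background at 4.67, 5.19, 4.77 and 5.07. BM-DC and CD8 Tnaive arrays overlapped each other and no other group. Their SDs were 1.10 and 1.38.

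Jun (chr4:95049036-95052222), the partner of Fos in AP-1, was detected on every array and varied least. Its group means ran from 6.18 in ESdM 20 to 7.05 in astrocytes, a span of 0.87, larger than that of 20.7% of the tested genes, whose median span was 1.93. ESdM 22 replicate 3 reached 7.17, against 6.19 and 6.44 on the other ESdM 22 arrays. CD8 Tnaive arrays ran from 5.33 to 6.83. Of the 7 pairs of neighbours in the order of the means, only BM-DC and MF did not overlap, with 6.35, 6.75 and 6.77 in BM-DC against 7.10, 6.83, 7.12 and 6.93 in MF.

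Junb (chr8:84976909-84978748), an AP-1 subunit with weaker activating capacity than Jun, spanned 6.83, the widest span of the family. ESdM 22 had 8.72, 8.61 and 9.30, ESdM 20 had 8.57, 8.70 and 8.62, and microglia had 8.49, 8.33 and 8.45. Astrocytes had 8.04, 7.22 and 7.35. Neurons were at 4.41, 4.92 and 4.96, with the lowest array not detected, below every other array. BM-DC had 11.70, 10.78 and 10.88, and CD8 Tnaive cells 12.21, 11.10, 11.54, 11.86 and 11.25. MF had 8.11, 8.38, 8.41 and 8.46. BM-DC and CD8 Tnaive arrays overlapped each other and stood above all others, and microglia and MF overlapped. The second Junb probe was detected on only 2 of 27 arrays, at 4.67 and 5.12, and gave no call in any comparison. All Junb results therefore rest on 1 probe.

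Egr1 (chr18:34861207-34864956), a factor induced through serum response factor and ERK signalling, separated the groups into a high and a low set. ESdM 22 had 5.53, 5.69 and 4.89, ESdM 20 had 5.12, 5.57 and 5.35, and microglia had 5.06, 4.95 and 5.08. These 9 arrays were all detected, yet none was above 5.69, and no array of another group was below 7.01. Astrocytes had 12.31, 10.60 and 11.55, and neurons 7.01, 8.94 and 7.38. BM-DC had 12.23, 10.69 and 11.15, and CD8 Tnaive cells 11.33, 11.65, 11.39, 11.18 and 10.85. MF lay between 9.88 and 10.15. Astrocytes, BM-DC and CD8 Tnaive cells overlapped, MF were below all 3 and neurons below MF.

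Egr2 (chr10:67534469-67542188), a relative of Egr1 with roles in myeloid and T cells, was highest in BM-DC. ESdM 22 had 6.77, 6.55 and 6.21, ESdM 20 had 6.69, 6.85 and 6.55, and microglia had 6.74, 6.77 and 6.39, all overlapping. Astrocytes had 6.07, 5.18 and 5.69, and of the neuron arrays only the one at 4.89 was detected. BM-DC had 11.39, 9.89 and 10.07, CD8 Tnaive cells 7.39, 7.81, 8.25, 7.63 and 7.21, and MF 8.78, 8.48, 8.88 and 8.79. BM-DC stood above MF, MF above CD8 Tnaive cells and these above the rest, each with no overlap.

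Atf3 (chr1:191170296-191183333), the stress-induced factor, was highest in MF. ESdM 22 had 8.50, 8.57 and 9.79, ESdM 20 had 8.43, 8.36 and 8.47, and microglia had 8.76, 8.95 and 8.80. Astrocytes had 6.10, 5.50 and 5.65, and neurons were not detected. BM-DC had 9.89, 9.26 and 8.46, and MF 10.18, 10.46, 10.31 and 10.23. ESdM 22 overlapped both BM-DC and microglia. CD8 Tnaive cells were detected on 3 of 5 arrays, between 4.43 and 5.53. The ESdM 22, ESdM 20, microglia, BM-DC and MF arrays were thus all above the astrocyte, CD8 Tnaive and neuron arrays, with no overlap.

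Ier2 (chr8:84661331-84662852), a small nuclear protein gene induced by growth factors, was the member detected on the fewest arrays. These were 8 of 27, namely the astrocyte arrays at 5.72, 4.55 and 5.09 and the CD8 Tnaive arrays at 6.04, 5.65, 5.82, 4.74 and 5.49. It was detected on no array of the other 6 groups.

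Ier3 (chr17:35821713-35822911), which encodes a survival factor induced by NF-kB, had an order of its own. ESdM 22 had 10.07, 9.94 and 9.69, ESdM 20 had 9.95, 9.96 and 10.03, and microglia 11.07, 10.96 and 10.99. Astrocytes had 9.01, 8.57 and 8.61, and neurons 6.09, 5.77 and 6.33. BM-DC, at 11.92, 11.83 and 11.96, were highest and microglia next. CD8 Tnaive cells had 5.64, 5.30, 5.87, 4.85 and 5.50, and MF 7.54, 7.61, 7.80 and 7.73. Only ESdM 22 with ESdM 20, and neurons with CD8 Tnaive cells, overlapped among neighbours. CD8 Tnaive cells, which had the highest mean for Fos, Junb and Dusp1, were last for Ier3.

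Dusp1 (chr17:26505591-26508472), the MAP kinase phosphatase, was detected on all 27 arrays. ESdM 22 had 8.68, 8.92 and 8.71, ESdM 20 had 9.61, 9.65 and 9.73, and microglia had 8.03, 7.93 and 8.07. Microglia were the lowest group, and the arrays of the 2 ESdM lines did not overlap. Astrocytes had 11.89, 11.40 and 11.72, and neurons 9.74, 9.20 and 9.58. BM-DC had 12.18, 11.19 and 11.32, CD8 Tnaive cells 12.28, 12.51, 12.34, 11.95 and 11.67, and MF 10.54, 10.04, 10.31 and 10.61. Astrocytes, BM-DC and CD8 Tnaive cells overlapped, MF were below them, and neurons overlapped ESdM 20.

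A gene was called in a comparison when its limma adjusted p was below 0.05 and the 2 groups were 1 or more log2 units apart, in 1 fit over all 27 arrays with Benjamini-Hochberg adjustment over the 12814 genes. The fit gives each gene 1 spread for all groups, whereas the members' median SD ran from 0.0615 in ESdM 20 to 0.612 in BM-DC. The p-values and intervals therefore do not follow the spread of the 2 groups compared. Nothing in the labels says whether arrays of a group come from separate cultures or animals, and the spread behind each p-value may therefore be technical. Other early response genes are described by lists of the AP-1 and ATF family, early response factors, mRNA decay and growth arrest genes, dual specificity phosphatases, upstream kinases and factors, and heat shock genes.

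**Figure D2:**
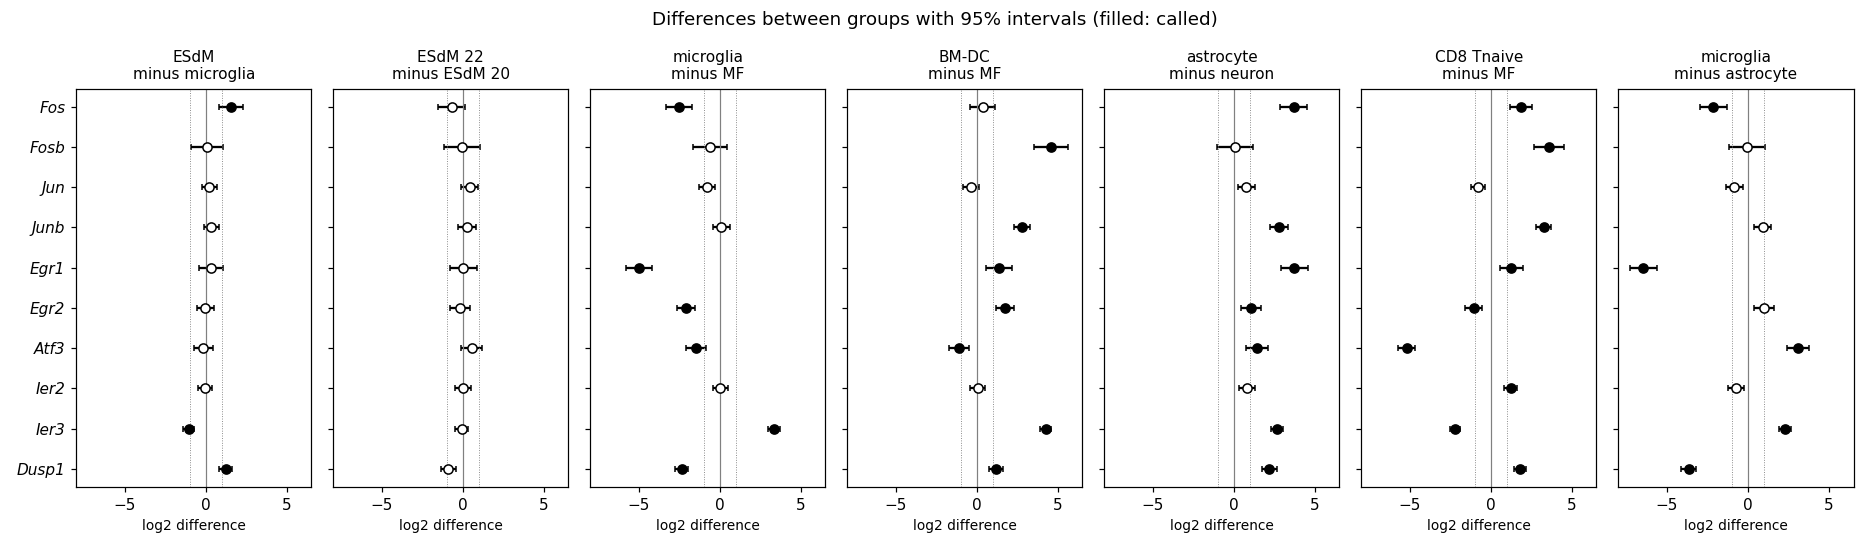
Log2 difference of each immediate early gene in the 7 comparisons (horizontal axis), with 95% intervals from the limma standard error on 19 degrees of freedom. Filled points were called, and dotted lines mark a log2 difference of 1. The widest differences were -6.46 for Egr1 in microglia against astrocytes and -5.20 for Atf3 in CD8 Tnaive cells against MF.

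Against microglia, ESdM cells had more Fos and Dusp1 RNA and less Ier3 RNA. These were 2 members called higher and 1 called lower of 10, where 0.601% and 1.47% of all tested genes were called in these directions and 2.07% in either. Fos averaged 8.83 in ESdM (n = 6) and 7.28 in microglia (n = 3), 2.93-fold higher (log2 1.55, SE 0.35, limma adjusted p = 0.00306). Dusp1 averaged 9.22 in ESdM and 8.01 in microglia, 2.31-fold higher (log2 1.21, SE 0.19, limma adjusted p = 5.52e-05). Ier3 averaged 9.94 in ESdM and 11.01 in microglia, 2.1-fold lower (log2 -1.07, SE 0.157, limma adjusted p = 2.38e-05). The ESdM and microglia arrays did not overlap for these 3 genes and Junb, 4 of 10 members, as for 20.8% of all genes. The other 7 members were not called, with log2 differences between -0.15 and 0.33. The interval of Egr1 ran from -0.40 to 1.05 and that of Atf3 from -0.72 to 0.42. In a fit of the ESdM and microglia arrays alone, with the shared chip as a fixed block, the 3 calls stood. Within the first shared chip, which held 1 microglia array, Fos was at log2 1.74 (limma adjusted p = 0.219) and Dusp1 at 1.13 (limma adjusted p = 0.0978). Within the second, Fos was at 1.48 (limma adjusted p = 0.0867) and Dusp1 at 1.27 (limma adjusted p = 0.0044). Over all alternatives adjusted p ran from 0.000493 to 0.219 for Fos and from 5.88e-06 to 0.0978 for Dusp1, which also missed the minimum difference without background correction, at 0.98.

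Among the other early response lists every called gene was lower in ESdM cells than in microglia. Of 16 other AP-1 and ATF genes tested, Batf2, an interferon-induced partner of Jun proteins, was called lower, at least 7.26-fold (4.26 in ESdM, not detected, and 7.48 in microglia, limma adjusted p = 1.55e-17). Of 29 other early response factors 3 were called lower, among them Id1, an inhibitor of helix-loop-helix factors, at log2 -2.84 (limma adjusted p = 8.98e-13) and Klf4, a zinc finger factor, at -1.40 (limma adjusted p = 0.00923). Btg1, an antiproliferative gene, was the 1 called of 9 mRNA decay and growth arrest genes, at log2 -1.13 (limma adjusted p = 1.34e-05). None of 10 dual specificity phosphatases, 21 upstream genes or 10 heat shock genes was called. The largest differences there were 0.85 for Dusp2, -0.67 for Map2k1 and 0.50 for Hsp90aa1. Median log2 differences were -0.08 for the early response factors and 0.13 for the 10 members, against 0.01 for all genes.

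Between ESdM 22 and ESdM 20 no member was called, and 0% of all tested genes were. At an unadjusted limma p below 0.05 there were 527 genes, 1 of them members. The difference of Dusp1 was -0.89 (interval -1.35 to -0.43, limma adjusted p = 0.537), with 8.77 in ESdM 22 and 9.66 in ESdM 20. Fos was at -0.70 (interval -1.55 to 0.14, limma adjusted p = 1). In the fit of the ESdM and microglia arrays alone, with the shared chip as a fixed block, Dusp1 was at -0.92 (limma adjusted p = 0.0307), below the minimum difference. That fit changed both the block and the set of arrays, so the lower p cannot be assigned to either. ESdM 22 replicate 3 stood apart from the other ESdM 22 arrays, with Atf3 0.84 above its group mean, Jun 0.57 above, Junb 0.42 above, Fos 0.60 below and Egr1 0.48 below. Arrays of the lines did not overlap for 3 of 10 members (Fos, Dusp1 and Atf3), as for 12.9% of all genes.

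Against MF, microglia had far less Egr1 RNA, less Fos, Egr2, Dusp1 and Atf3 RNA and more Ier3 RNA. These were 1 member called higher and 5 called lower of 10, where 11% and 11.5% of all tested genes were called in these directions and 22.5% in either. Egr1 averaged 5.03 ± 0.0733 in microglia (SD, n = 3) and 10.02 ± 0.112 in MF (SD, n = 4), 31.7-fold lower (log2 -4.99, SE 0.375, limma adjusted p = 2.06e-11). Without background correction Egr1 was 9.32-fold lower (log2 -3.22), and Egr2 was at log2 -1.44. Fos was 5.83-fold lower (log2 -2.54, limma adjusted p = 2.7e-06), Dusp1 5.15-fold lower (log2 -2.37, limma adjusted p = 3.03e-10) and Egr2 4.29-fold lower (log2 -2.10, limma adjusted p = 3.48e-07). Atf3 was 2.75-fold lower (log2 -1.46, limma adjusted p = 0.000151). Ier3 averaged 11.01 in microglia and 7.67 in MF, 10.1-fold higher (log2 3.34, SE 0.17, limma adjusted p = 8.5e-15). The arrays did not overlap for 8 of 10 members, the exceptions being Junb and Ier2, as for 55.7% of all genes. Junb differed by 0.08 (interval -0.43 to 0.59). Jun, at -0.81 (limma adjusted p = 0.00623), missed the minimum difference, and was called at -1.36 with median scaling (range over its alternatives -1.36 to -0.42).

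Among the other early genes, Gadd45a, a stress-induced growth arrest gene, was 6.09 in microglia and 10.96 in MF (log2 -4.86, limma adjusted p = 7.98e-16), and Sgk1, a serum- and glucocorticoid-induced kinase gene, 5.43 in microglia and 10.39 in MF (log2 -4.96, limma adjusted p = 8.31e-15). Dusp6, an ERK phosphatase gene, was lower by log2 -2.64 (limma adjusted p = 5.81e-07) and Dusp16, a JNK and p38 phosphatase gene, higher by 1.59 (limma adjusted p = 6.01e-07), the 2 called of 10 phosphatases. Id1 was higher by 3.43 and Nfkbia, the NF-kB inhibitor gene, by 1.71 (limma adjusted p = 8.09e-15 and 2.11e-06). Of 29 early response factors 7 were higher and 5 lower. Of 9 mRNA decay and growth arrest genes 0 were higher and 3 lower. Of 16 AP-1 and ATF genes 1 was higher and 2 lower. Of 21 upstream genes 1 was higher and 1 lower. The heat shock genes Hsph1 and Hspa8 were higher by 2.25 and 1.34 (limma adjusted p = 5.07e-06 and 6.87e-10), with 0 lower of 10. The members' median was -1.13, against 0.01 for all genes. With median scaling the median of all genes was -0.12, and the share of called genes that were higher was 23.2%, against 48.9% in the quantile normalized values.

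Against MF, BM-DC had more Fosb, Ier3, Junb, Egr2, Egr1 and Dusp1 RNA and less Atf3 RNA. These were 6 members called higher and 1 called lower of 10, where 7.51% and 10.2% of all tested genes were called in these directions and 17.7% in either. Arrays did not overlap for 8 of 10 members, as for 48.1% of all genes. Fosb averaged 9.52 in BM-DC and 4.92 in MF, 24.1-fold higher (log2 4.59, SE 0.501, limma adjusted p = 3.03e-08). It was 7.06-fold higher without background correction and 15.6-fold higher without BM-DC replicate 1. Ier3 averaged 11.90 in BM-DC and 7.67 in MF, 18.8-fold higher (log2 4.23, SE 0.17, limma adjusted p = 9.55e-17). Junb was 6.86-fold higher (log2 2.78, limma adjusted p = 6.05e-10) and Egr2 3.29-fold higher (log2 1.72, limma adjusted p = 9.84e-06). Egr1 was 2.53-fold higher (limma adjusted p = 0.00471) and Dusp1 2.28-fold higher (limma adjusted p = 2.84e-05). Atf3 was 2.14-fold lower (limma adjusted p = 0.00334). Fos differed by 0.34 (interval -0.45 to 1.13). BM-DC replicate 1 was the highest BM-DC array for 7 of the members. Without it, Egr1 was at 0.90 (limma adjusted p = 0.0689, range over its alternatives 0.00181 to 0.0689) and Dusp1 at 0.88, and with median scaling they were at 1.09 (limma adjusted p = 0.0659) and 0.96. Atf3 was at -0.72 without BM-DC replicate 3 (limma adjusted p = 0.0595, range over its alternatives 0.000416 to 0.0595). The Atf3 call was also lost without background correction, at -0.98. With the deposited series matrix values Atf3 fell just short of the minimum difference, at -1 after rounding.

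Related genes showed 2 directions in the same comparison. Fosl2, another Fos family gene, was 10.35 in BM-DC and 6.22 in MF (log2 4.13, limma adjusted p = 5.29e-15), and Batf, a Jun partner of lymphoid and dendritic cells, was higher by 2.56 (limma adjusted p = 5.34e-09), with 4 higher and 0 lower of 16. Csrnp1, an early response nuclear protein gene, was higher by 4.78 and Klf4 by 4.02 (limma adjusted p = 1.78e-14 and 3.62e-09), with 8 higher and 2 lower of 29. Dusp5 was higher by 3.27 while Dusp4 and Dusp6 were lower by log2 -2.48 and -2.24 (limma adjusted p = 1.16e-14, 1.85e-08 and 9.59e-06), with 3 higher and 4 lower of 10. Crem, a cAMP-responsive factor gene, was higher by 3.96 (limma adjusted p = 1.64e-13), with 2 upstream genes higher and 1 lower of 21, and 2 mRNA decay and growth arrest genes were higher and 1 lower of 9. Hspd1 and Hsp90aa1 were lower by log2 -1.74 and -1.36 (limma adjusted p = 6.78e-09 and 0.000439), with 0 higher and 3 lower of 10 heat shock genes. The members' median was 1.27, against -0.03 for all genes. All 5 granulocyte markers were detected on every BM-DC array, with a summed intensity of 3050 to 5090, against 212 to 251 in MF, where 2 were detected on no array. Of the 5, 2 were called higher and 0 lower. In BM-DC S100a8 was at 11.56 and S100a9 at 9.64, which made up most of the sum. Elane, Mpo and Camp lay just above background there, at 4.96, 5.15 and 4.96. The part of these markers in these results was not tested. With median scaling 25.7% of called genes were higher, against 42.5% in the quantile normalized values.

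Against neurons, astrocytes had more RNA of 7 of the 10 members and less of none, where 17.6% of all tested genes were called higher, 14.8% lower and 32.4% either way. Arrays did not overlap for 9 of 10 members, as for 60.7% of all genes. Egr1 averaged 11.49 in astrocytes and 7.78 in neurons, 13.1-fold higher (log2 3.71, SE 0.401, limma adjusted p = 9.34e-09). Fos averaged 9.43 in astrocytes and 5.75 in neurons, 12.8-fold higher (log2 3.68, SE 0.404, limma adjusted p = 1.23e-08). It was 5.54-fold higher without background correction and 19.7-fold higher without astrocyte replicate 2. Junb, Ier3 and Dusp1 were 6.84-fold, 6.34-fold and 4.48-fold higher (limma adjusted p = 6.63e-10, 1.18e-12 and 2.8e-09). Junb was detected on 2 of 3 neuron arrays. Without background correction Junb was 2.43-fold and Ier3 3.27-fold higher. Atf3, not detected in neurons, was at least 2.24-fold higher (limma adjusted p = 0.000339). Egr2 was 2.1-fold higher with 1 of 3 neuron arrays detected (limma adjusted p = 0.00262). The last 2 calls were lost without background correction, at 0.46 for Atf3 and 0.34 for Egr2 (limma adjusted p = 0.0996 and 0.234). Adjusted p ran over the alternatives from 0.000217 to 0.0996 for Atf3 and from 0.00103 to 0.234 for Egr2. Egr2 also missed the minimum difference without astrocyte replicate 1, at 0.86, and without neuron replicate 1, at 0.97. Jun was at 0.75 and Ier2 at 0.81, below the minimum difference, and Ier2 reached 1.10 without astrocyte replicate 2.

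The mRNA decay and growth arrest genes showed the same direction, with 6 higher and 0 lower of 9 and a median of 2.44, against 0 for all genes. Gadd45a was higher by 4.38 and Zfp36, which encodes an RNA-destabilizing protein, by 3.41 (limma adjusted p = 8.7e-15 and 1.46e-10). Of 29 early response factors 9 were higher and 4 lower. Ccn1 and Ccn2, secreted matrix protein genes, were higher by 5.18 and 4.53, with Ccn1 detected on 1 of 3 neuron arrays, while Homer1 and Plk2, genes of active synapses, were lower by log2 -2.99 and -2.64 (limma adjusted p from 5.2e-21 to 9.48e-11). Of 21 upstream genes 4 were higher and 3 lower, among them Mapk8, a JNK gene, at log2 -4.25 (limma adjusted p = 2.32e-16). Atf4 and Atf2 were lower by log2 -2.21 and -1.48 (limma adjusted p = 3.75e-09 and 4.56e-09), with 0 higher of 16. Of the heat shock genes Bag3 was higher by 5.55 (limma adjusted p = 1.54e-17), with 2 higher and 0 lower of 10. Of 10 phosphatases 5 were higher and 1 lower.

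The neural arrays differed in other cells' markers as well. The 9 microglia markers summed to 9560, 4790 and 5800 on astrocyte replicates 1, 2 and 3, and to 192 to 205 in neurons. Egr1 and Fos were highest on astrocyte replicate 1 and lowest on replicate 2, in the same order as these sums. The 8 astrocyte markers summed to 2160, 6150 and 1960 on neuron replicates 1, 2 and 3, and the 5 oligodendrocyte markers to 2130, 6700 and 902. Of these 5, Mog, Olig2 and Pdgfra were detected on no neuron array. The other 2, Olig1 and Mbp, averaged 11.08 and 6.33 in neurons, so the sums mainly follow Olig1. Replicate 2 was the highest neuron array for Egr1, Egr2 and Fos and the lowest for Dusp1, Ier3 and Jun, with 5 of 10 members above the group mean. The part of these markers in the results was not tested.

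Against MF, CD8 Tnaive cells had more Junb, Fosb, Fos, Dusp1, Egr1 and Ier2 RNA and less Atf3, Ier3 and Egr2 RNA. These were 6 members called higher and 3 called lower of 10, where 14.4% and 16.7% of all tested genes were called in these directions and 31.1% in either. Arrays did not overlap for any of the 10 members, as for 48.2% of all genes. For Jun the nearest arrays of the 2 groups were both at 6.83 after rounding. Jun, at -0.80 (limma adjusted p = 0.0018), missed the minimum difference, and was called lower at -1.06 with median scaling. Fosb averaged 8.51 in CD8 Tnaive cells (n = 5) and 4.92 in MF (n = 4), 12-fold higher (log2 3.59, SE 0.44, limma adjusted p = 7.79e-08). It was 4.06-fold higher without background correction. Junb was 9.5-fold higher (log2 3.25, limma adjusted p = 5.34e-13), Fos 3.59-fold (limma adjusted p = 2.62e-05), Dusp1 3.42-fold (limma adjusted p = 2.62e-09) and Egr1 2.4-fold (limma adjusted p = 0.00172). Ier2, not detected in MF, was at least 1.93-fold higher (fitted log2 1.20, limma adjusted p = 5.31e-06), and missed the minimum difference without background correction, at 0.39. Atf3 averaged 5.10 in CD8 Tnaive cells, detected on 3 of 5 arrays, and 10.30 in MF, 36.7-fold lower (log2 -5.20, SE 0.258, limma adjusted p = 1.58e-15). Without background correction it was 10.9-fold lower. Ier3 was 4.72-fold lower (limma adjusted p = 6.97e-13), and 2.22-fold lower without background correction. Egr2 was 2.11-fold lower (log2 -1.08, limma adjusted p = 0.000349), and missed the minimum difference without CD8 Tnaive replicate 5, at -0.96, and without background correction, at -0.81. Both erythroid markers were called higher, with sums of 1310 to 6620 on the CD8 Tnaive arrays and 36 to 44.6 in MF. Cd79b, the 1 tested B cell marker, was also called higher. Together with Ms4a1, which was detected on no array of either group, it summed to 99 to 133 on the CD8 Tnaive arrays and 49.2 to 55 in MF. The part of these erythroid and B cell markers in these results was not tested.

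Many further early genes were high in the CD8 Tnaive cells. Klf2, a factor of quiescent T cells, was 12.88 in CD8 Tnaive cells and 6.05 in MF (log2 6.83, limma adjusted p = 2.7e-16), and Csrnp1 was higher by 4.98 (limma adjusted p = 9.85e-17), with 12 higher and 4 lower of 29. Fosl2 was higher by 4.43 (limma adjusted p = 1.47e-17), with 4 higher and 3 lower of 16. Dusp10 and Dusp2 were higher by 5.27 and 5.19 (limma adjusted p = 3.21e-22 and 1.6e-23), Dusp10 being detected on 2 of 4 MF arrays. Dusp3 was not detected in CD8 Tnaive cells and at least 94.2-fold lower than in MF (limma adjusted p = 8.81e-28), with 4 phosphatases higher and 4 lower of 10. Ppp1r15a, which restores translation after stress, and Btg1 were higher by 3.22 and 2.53 (limma adjusted p = 5.46e-13 and 7.89e-14), and Gadd45a was lower by log2 -3.08 (limma adjusted p = 1.99e-13), with 5 higher and 3 lower of 9. Crem was higher by 4.81 (limma adjusted p = 3.81e-17), with 5 upstream genes higher and 3 lower of 21. Of 10 heat shock genes 3 were higher and 1 lower. The members' median was 1.23, against -0.01 for all genes.

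Against astrocytes, microglia had less Egr1, Dusp1 and Fos RNA and more Atf3 and Ier3 RNA. These were 2 members called higher and 3 called lower of 10, where 16.6% and 18.8% of all tested genes were called in these directions and 35.4% in either. Arrays did not overlap for 8 of 10 members, as for 68.3% of all genes. Egr1 averaged 5.03 ± 0.0733 in microglia and 11.49 ± 0.858 in astrocytes (SD, n = 3 each), 87.7-fold lower (log2 -6.46, SE 0.401, limma adjusted p = 1.95e-13). Without background correction Egr1 was 24.6-fold lower (log2 -4.62). Dusp1 was 12.7-fold lower (log2 -3.66, limma adjusted p = 8.84e-14) and Fos 4.44-fold lower (log2 -2.15, limma adjusted p = 4.62e-05), or 6.82-fold lower without astrocyte replicate 2. Atf3 averaged 8.84 in microglia and 5.75 in astrocytes, 8.48-fold higher (log2 3.08, limma adjusted p = 3.03e-09) and 3.81-fold higher without background correction. Ier3 was 4.85-fold higher (log2 2.28, limma adjusted p = 2.83e-11). Egr2 at 0.98, Junb at 0.89, Jun at -0.86 and Ier2 at -0.75 missed the minimum difference, with limma adjusted p between 0.00452 and 0.00728. Without astrocyte replicate 1, Egr2 was called at 1.20 and Junb at 1.14. Egr2 was also called at 1.01 without astrocyte replicate 3 and at 1.10 without microglia replicate 3, and Ier2 at -1.04 without astrocyte replicate 2.

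Dusp6 was 8.09 in microglia and 12.09 in astrocytes (log2 -4.00, limma adjusted p = 8.05e-10), and Sgk1 was lower by log2 -5.79 (limma adjusted p = 4.72e-16). Ccn2 was not detected in microglia and at least 492-fold lower (limma adjusted p = 4.14e-23), while Tnfaip3, an NF-kB-induced inhibitor gene, was higher by 3.09 (limma adjusted p = 5.97e-13) with 1 of 3 astrocyte arrays detected. Of 29 early response factors 6 were higher and 8 lower. Mapkapk2, a kinase gene downstream of p38, was higher by 2.95 (limma adjusted p = 4.11e-10), with 3 higher and 5 lower of 21 upstream genes. Of 10 phosphatases 3 were higher and 3 lower, of 16 AP-1 and ATF genes 3 and 1, of 9 mRNA decay and growth arrest genes 1 and 3, and of 10 heat shock genes 2 and 2. The members' median was -0.40, against 0.02 for all genes. Astrocyte and microglia arrays were on different chips. The 8 macrophage markers summed to 4750 to 8150 in astrocytes and to 9330 to 10200 in microglia. For the 9 microglia markers the sums were 4790 to 9560 in astrocytes and 210 to 218 in microglia. The astrocyte arrays thus held myeloid RNA, whose part in these differences was not tested.

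Within groups the family was more variable than most genes. All 10 members had a residual SD above the median of the tested genes, which was 0.205. Fosb (0.737), Fos (0.551) and Egr1 (0.548) lay above at least 99.2% of genes, Atf3 (0.424) above 96.8% and Egr2 (0.392) above 95.4%. Ier3 (0.23) lay lowest, above 62.3%. The excess was not spread evenly over the groups. In BM-DC 7 of the 9 members detected on all arrays had an SD above the 90th percentile of genes in that group, in astrocytes 5 of 9, in ESdM 22 3 of 8 and in MF 0 of 9. The members' median SD was 0.612 in BM-DC and 0.441 in astrocytes, where that of all detected genes was 0.172 and 0.169. It was 0.0615 in ESdM 20 and 0.0789 in microglia, against 0.103 and 0.0985 for all detected genes there.

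**Figure D3:**
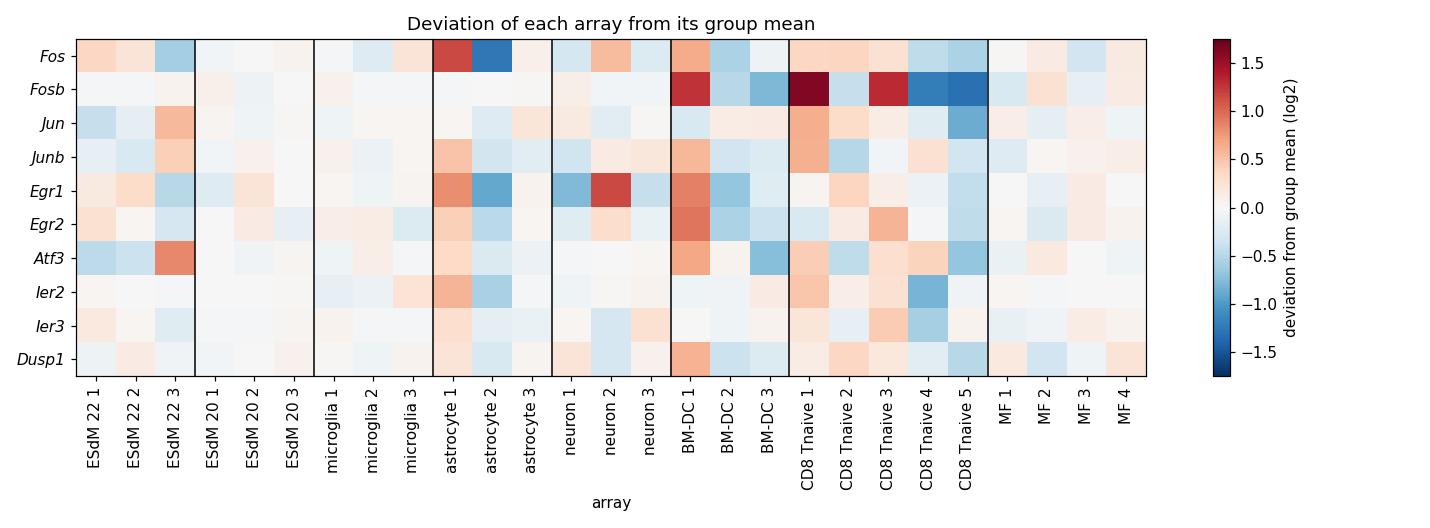
Deviation of each array (columns, in blocks by group) from its group mean for each immediate early gene (rows), in log2 units by colour. Astrocyte replicate 1 and BM-DC replicate 1 are high for most genes, and ESdM 20, microglia and MF arrays deviate little.

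In several groups the members deviated together on single arrays. On astrocyte replicate 1, 9 of 10 members were above the group mean, with a mean deviation of 0.44, and on replicate 2 none was, with a mean of -0.44. On BM-DC replicate 1, 8 were above, with a mean of 0.53. Among CD8 Tnaive arrays 9 members were above the group mean on each of replicates 1 and 3 (means 0.43 and 0.35), and 2 and 1 on replicates 4 and 5 (means -0.29 and -0.51). Replicates 4 and 5 shared a chip, replicates 1 and 2 another, and replicate 3 was on a chip of its own. The 8 macrophage markers summed to 730 and 864 on CD8 Tnaive replicates 1 and 3 and to 246, 241 and 201 on replicates 2, 4 and 5. The 9 dendritic markers summed to 3270, 1990, 3160, 1400 and 1030 on replicates 1 to 5, an order that Fosb shared with 10.13, 8.10, 9.82, 7.30 and 7.20. Of these markers 6, among them Flt3, Itgax and Zbtb46, were detected on no CD8 Tnaive array. The 3 detected on all were Ccr7, H2-Aa and H2-Ab1. Ccr7 was at 10.18 in CD8 Tnaive cells and at 5.58 in BM-DC, so these sums do not single out dendritic cells. Granulocyte sums were 1030, 432, 459, 114 and 255, and erythroid sums 2830, 1500, 2920, 1310 and 6620. The part of these markers in the deviations was not tested. In the MF group, spread over 3 chips, the mean deviation per array stayed between -0.04 and 0.06. Over the 27 arrays the deviations of Egr1 and Fos correlated at r = 0.85, those of Egr1 and Egr2 at 0.78, and those of Junb and Atf3 at 0.78. These are descriptions, since arrays of a group share their origin and the normalization.

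**Figure D4:**
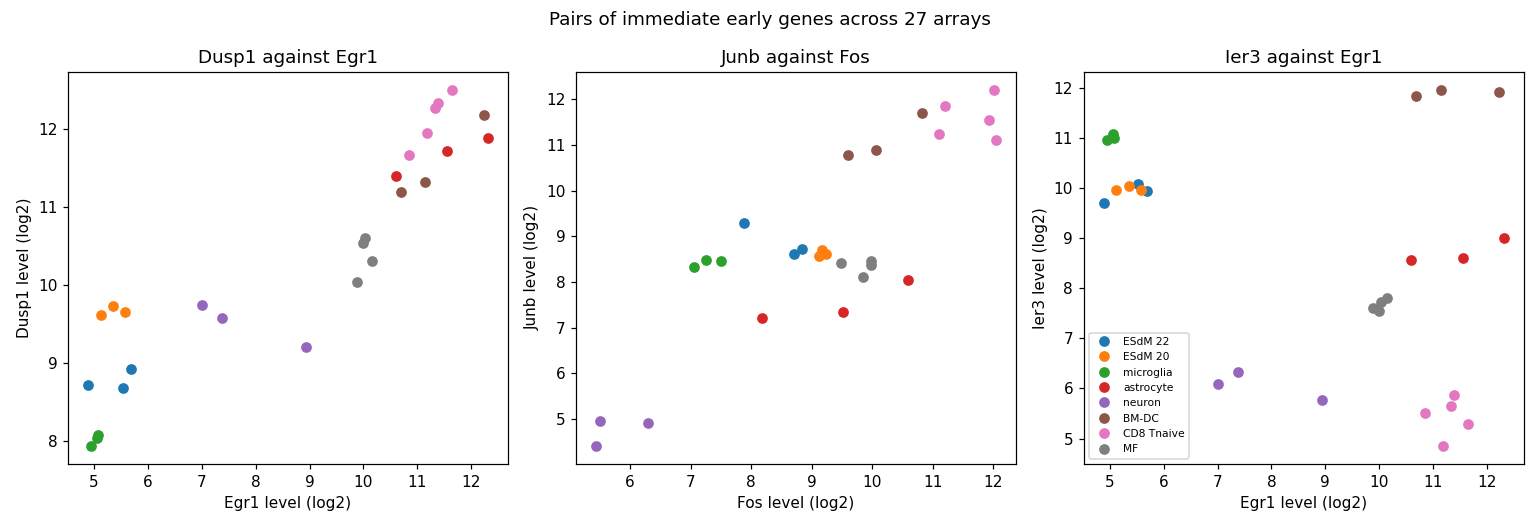
Levels of Dusp1 against Egr1, Junb against Fos and Ier3 against Egr1 (log2, both axes), with each point 1 of 27 arrays coloured by group. Dusp1 and Egr1 lie along 1 diagonal (r = 0.92), whereas Ier3 is high both in microglia and ESdM, where Egr1 is low, and in BM-DC, where Egr1 is high.

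Levels across the 27 arrays fell into different patterns among the members. Egr1 and Dusp1 correlated at r = 0.92, Fos and Junb at 0.84 and Fosb and Junb at 0.79. Ier3 and Atf3 correlated with each other at 0.67 and with Dusp1 at -0.41 and -0.38, and Ier2 and Atf3 at -0.56. Across the 8 group means alone the r of Egr1 and Dusp1 was 0.93 and that of Ier3 and Atf3 0.69. The genes most like each member by Pearson's r over the 27 arrays were sought among all tested genes other than those with clone names. For Egr1 these were Rdm1 (0.964), Arap2 (0.954) and Pts (0.934), and for Dusp1 they were Ramp1 (0.919), Egr1 itself (0.916) and Saraf (0.915). For Fos they were Ifngr1, the interferon gamma receptor gene (0.929), Stim1, a calcium sensor gene (0.90), and Wrn (0.899). Fosb was most like Irf4, a lymphoid factor gene (0.968), Batf (0.955) and Arhgap26 (0.946), and Junb most like Samsn1 (0.952), Rin3 (0.952) and Dnajc15 (0.948). Egr2 was most like Idua (0.948), Tm6sf1 (0.944) and Tmed2 (0.927), which were all highest in BM-DC. Ier3 was most like Il13ra1, a cytokine receptor gene (0.987), Tlr2, a sensor of bacterial lipoproteins (0.962), and Tmem159 (0.957). Atf3 was most like Sdf2l1, an endoplasmic reticulum gene (0.975), Nrap (0.973) and Lilrb4a (0.972). Jun and Ier2 spanned less than 2 units between groups and were left out. These arrays share groups, chips and normalization, so the values of r describe likeness here and nothing more.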

How the data were processed

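The deposited table held for each of the 27 arrays the mean bead intensity of 45281 probes, not normalized per the file headers, and a detection p-value per probe. The deposited series matrix held intensity that was quantile normalized as judged from its values, and served as an alternative. The authors' software is not given in the sources used here. Intensities were background corrected with neqc of limma 3.58.1 (R 4.3.3; background inferred from the detection p-values, offset 16), quantile normalized and taken to log2. A probe was kept if detected (p below 0.05) on 3 or more arrays (25001), and the brightest probe per symbol was tested (12814 genes). 34885 probes had 1 symbol, 18 several and 10378 none here. A limma fit with 1 mean per group (19 residual degrees of freedom) gave all 7 comparisons. Folds marked "at least" raise undetected arrays to their lowest detected value. The fit was tested on simulated data. The members and lists were chosen with earlier results of these data known. The members are named in full, and from each other list up to 2 called genes in each direction with the largest difference, or with none called the 2 largest, and per member the 3 genes with the highest r. The text gives a selection of the list genes. The named cell type markers were chosen after their values were seen. The number of arrays limits the precision. No pair of arrays was identical.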

Additional observations from a re-analysis of the deposited data

How the results depend on the processing

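No member changed direction in any comparison where it was called under any alternative, and all 10 members kept their highest group with the series matrix and without background correction, and 8 with median scaling. Of 37 called member differences, 14 moved by over 1.5 times without background correction and 13 with the series matrix. The call of 3 members in ESdM against microglia became 1 within the first shared chip, an alternative added after seeing the data, as was the repeat of the spread, in which 9 members without background correction, 9 with the series matrix and 10 with median scaling were above the median SD of all genes. In microglia against astrocytes 9 members were called with no minimum difference, against 5. Leaving out 1 array gave 5 to 7 members called in BM-DC against MF (7 with all arrays), 6 to 8 in astrocytes against neurons (7), 8 to 9 in CD8 Tnaive cells against MF (9) and 5 to 7 in microglia against astrocytes (5), and left 3, 0 and 6 in the other comparisons. Calls over all genes numbered, without background correction and with the series matrix, 104 and 122 (main setting 265) in ESdM against microglia, 1424 and 1579 (main setting 2882) in microglia against MF, 1019 and 1136 (main setting 2266) in BM-DC against MF, 2351 and 2559 (main setting 4150) in astrocytes against neurons, 2258 and 2435 (main setting 3989) in CD8 Tnaive cells against MF, and 2543 and 2743 (main setting 4536) in microglia against astrocytes. With no minimum difference these counts were 1564, 6180, 5494, 7132, 7463 and 7575. Between ESdM 22 and ESdM 20, 0 genes were called by limma, 3 with no minimum difference and 1 with median scaling. With the chip as a fixed block, on the ESdM and microglia arrays alone, 1 was called, and without single arrays 0 to 1. The replicate block (the number in the titles) left 3, 0, 6, 7, 7, 8 and 5 members called, against 3, 0, 6, 7, 7, 9 and 5. The one call lost was Egr2 in CD8 Tnaive cells against MF, at -0.96. Correlations of same-numbered deviations ran from -0.36 to 0.11. Differently numbered arrays were not correlated, so these values cannot show whether the arrays were prepared in pairs. Members not detected in a group have only a bound there.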
